A study of Mus musculus with 16 samples.

Results

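Arg1, Mrc1, Mgl2, Clec10a, Clec7a, Trem2, Msr1, Fn1, F13a1 and Il1rn are genes for receptors, enzymes and secreted proteins that macrophages make in their alternatively activated state. They were followed through every array probe annotated with 1 of these 10 symbols. A probe was found for 9 of them, out of 16593 genes named on the array, and Fn1, which encodes fibronectin, had none. The 9 genes were read by 14 of 25697 probes. Of these 14 probes, 9, for 7 genes, passed the filter on dim probes and entered the test with 17810 probes in all.

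Lung tissue was taken from 16 female mice of the C57BL/6N strain, and the RNA of each mouse was read on its own Illumina bead array. The mice were wild type or lacked Prdm11, which encodes a transcriptional regulator of the PRDM type. Either genotype was studied untreated and after challenge with the egg-white allergen ovalbumin (OVA), with 4 mice in each of the 4 groups. The challenged mice, aged 35 weeks, had been sensitised with 10 µg OVA in 2 mg alum injected into the peritoneum and later inhaled an aerosol of 1% OVA for 30 min on 3 occasions. The untreated mice were 22 weeks old, so age and challenge cannot be told apart, and their labels do not say whether they had been sensitised. The labels describe the knockout by its genotype only. Prdm11 was not among the named probes, so the genotypes rest on the labels.

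Macrophages exposed to the type 2 cytokines IL-4 and IL-13 signal through the transcription factor STAT6 and switch on a programme of endocytic lectins, arginine metabolism and repair factors, known as alternative activation. In the lung this programme is a feature of allergic inflammation and worm infection. The word covers a mixture of states. Arginase and the lectins are used as marks of the programme in mice, though they are not exclusive to it. TREM2, factor XIII and the interleukin 1 receptor antagonist are also made by other macrophages, and the antagonist by epithelium and neutrophils.

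Values are deposited intensities, which have no absolute scale, so levels are compared between mice for 1 probe and never between probes. Changes are differences of log2 intensity, given ± SE from 1 limma model of all 16 arrays, with a Benjamini-Hochberg adjusted p over the 17810 probes. A probe was called at an adjusted p under 0.05. The 40th percentile of an array, log2 6.24 to 6.25 or an intensity near 76, served as a gauge of background. A group with at most 1 of 4 mice above it was taken as dim, and the mean rise from it is a lower bound as to background, not as to the spread between mice. With 4 mice against 4, the smallest exact permutation p is 0.0286.

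Before the results, 2 libraries need naming, which were picked after seeing the data. Challenged wild type replicate 4 correlated with the other arrays at 0.676 to 0.842, whereas the remaining 15 correlated with each other at 0.877 or more. Challenged knockout replicate 3 had the lowest mean of the lung epithelium markers, log2 10.04 against 10.78 to 11.26 in its 3 group mates. It also had the lowest mean of the general macrophage markers, 8.76 against 9.34 to 9.54. By correlation it was among the other 15, with a highest value of 0.961. Challenged knockout replicate 3 was also the lowest of its group for Arg1, Trem2, Mrc1, Clec10a, F13a1, Il1rn probe 1, Clec7a probes 1 and 4 and the untested Mgl2. Leaving it out therefore had to raise the challenged knockout means of these probes, and the fits without it only describe that dependence. Challenged wild type replicate 4 was the highest of its group for Clec7a probe 1 and Clec10a and the lowest for Mrc1 and F13a1. Leaving it out had to lower the wild type means of the former and raise those of the latter. For Clec7a probe 1, leaving out both libraries had to widen the difference between the challenged genotypes. The lung label was borne out in all 16 arrays, where 7 or 8 of the 9 lung epithelium markers with a probe lay above the gauge.

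The promoters of the members whose values carry the results are shown for reference. Windows from 250 bases before to 50 bases after the start were found for 6 of the 10 genes, 10 windows in all, and Arg1, Clec10a, Msr1 and Fn1 had no entry. Sequences are from RefSeq, build GRCm38.p6, written 5′ to 3′ on the gene's strand. Capitals mark matches to the motifs searched on both strands. These were TTC and GAA with 4 free bases between them, the spacing that STAT6 prefers, the same triplets with 3 free bases between them, the spacing of other STAT factors, AGAGGAAGT, a site for the macrophage factor PU.1, and the shorter GAGGAA that this site contains. Clec7a is at chr6:129472730-129473029 on the minus strand, Il1rn (the second of 3 windows) at chr2:24345041-24345340 on the plus strand, and Trem2 at chr17:48346151-48346450 on the plus strand.
Clec7a: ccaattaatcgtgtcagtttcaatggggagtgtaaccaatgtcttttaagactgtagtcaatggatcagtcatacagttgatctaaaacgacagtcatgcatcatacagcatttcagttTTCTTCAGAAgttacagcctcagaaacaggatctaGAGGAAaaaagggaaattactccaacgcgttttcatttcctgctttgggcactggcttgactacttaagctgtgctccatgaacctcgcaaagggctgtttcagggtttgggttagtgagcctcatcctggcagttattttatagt
Il1rn: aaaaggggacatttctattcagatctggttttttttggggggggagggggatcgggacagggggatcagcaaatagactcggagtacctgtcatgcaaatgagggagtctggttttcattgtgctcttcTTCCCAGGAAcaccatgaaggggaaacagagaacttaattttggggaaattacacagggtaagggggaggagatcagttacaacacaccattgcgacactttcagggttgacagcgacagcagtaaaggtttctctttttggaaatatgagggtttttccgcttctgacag
Trem2: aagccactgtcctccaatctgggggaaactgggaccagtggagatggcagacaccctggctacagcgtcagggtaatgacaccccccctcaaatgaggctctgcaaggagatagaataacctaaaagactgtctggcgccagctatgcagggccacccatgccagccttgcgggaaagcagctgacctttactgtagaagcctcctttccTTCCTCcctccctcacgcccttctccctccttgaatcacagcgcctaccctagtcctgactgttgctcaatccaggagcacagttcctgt

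The motif with 4 free bases occurred in both overlapping Clec7a windows, as TTCTTCAGAA starting at -131 in the window shown, and in 2 overlapping Il1rn windows, as TTCCCAGGAA starting at -121 in the one shown. It was found in 7.0% of all 32851 mouse windows of this length. GAGGAA, present in 28.3% of windows, occurred in Clec7a, Trem2, Mrc1, Mgl2 and F13a1. The motif with 3 free bases (8.3% of windows) and AGAGGAAGT (1.0%) matched none of the 10. A match describes letters in the window and no more, and nothing follows from its absence.

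With challenge, 2 of the 9 tested member probes rose in wild type mice, those for the lectins Clec7a and Clec10a, where 29.4% of all tested probes were called, 11.7% higher and 17.7% lower. No member probe fell. The groups did not overlap for the same 2 probes, as for 10.4% of all probes in the upward direction. In knockout mice 5 of the 9 rose, those for Clec7a, Arg1, Clec10a, Trem2 and Il1rn, where 16.6% of all tested probes were called, 9.1% higher and 7.48% lower. Again no member probe fell. There the groups did not overlap for 5 tested member probes, F13a1 in place of Trem2, against 14.7% of all probes in the upward direction. The median change of the 9 tested probes was 0.02 in the wild type, where that of all probes was 0.03, and 0.79 in the knockout, where that of all probes was -0.05. Some members passed the filter through the challenged mice in which they were bright, so these counts and medians describe the probes and support nothing further. In whole lung, more cells of a type and more RNA per cell cannot be told apart.

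**Figure D1:**
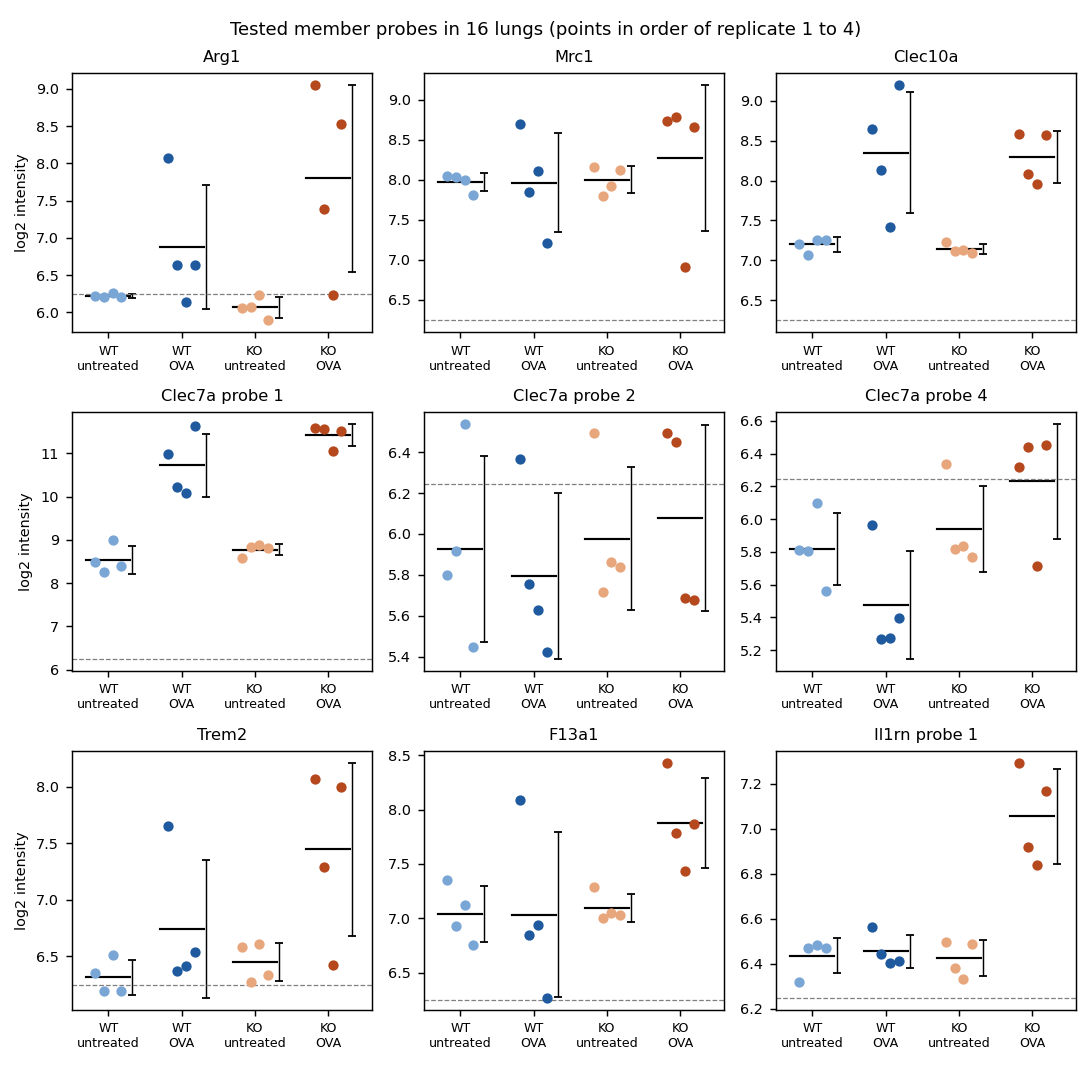
log2 intensity (y axis, one scale per panel) of the 9 tested member probes in the 16 lungs, by group on the x axis. Points are mice in order of replicate 1 to 4, horizontal bars are group means, vertical bars beside them are ± 1 SD (n = 4), and the dashed line is the background gauge of about log2 6.25. Clec7a probe 1 and Clec10a are higher in all challenged mice than in the untreated mice of their genotype, and Il1rn probe 1 is higher in the 4 challenged knockout mice only.

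Clec7a encodes dectin-1, the receptor for fungal beta-glucans that signals through Syk and Card9. It had 4 probes, of which probe 1 was the brightest. The other 3 lay at or near background, with at most 1 of 4 mice above the gauge in each group except challenged knockout, where it was 2, 3 and 3 of 4 for probes 2, 3 and 4. On probe 1 the untreated wild type mice read 361.5, 305.7, 511.1 and 334.8 and the challenged wild type mice 2016, 1189, 1080.0 and 3175. Untreated knockout mice read 382.8, 455.7, 470.9 and 452.3, and challenged knockout mice 3069, 3044, 2122 and 2909. Every challenged mouse exceeded every untreated mouse of either genotype, and the challenged knockout mice lay close together except for replicate 3. The rise was 2.19 ± 0.27 in the wild type, a 4.57-fold difference (limma adjusted p = 8.04e-05), and 2.65 ± 0.27 in the knockout, a 6.28-fold difference (limma adjusted p = 3.46e-05). The exact permutation p was 0.0286 in each genotype, and the rises passed in each of the 16 fits that left out 1 array. The other probes, near background, did not show the wild type rise. Probes 2 and 4 changed by -0.13 and -0.34 in the wild type (limma adjusted p = 0.72 and 0.188). In the knockout they changed by 0.10 and 0.29 (limma adjusted p = 0.839 and 0.358). With challenge, untested probe 3 was higher in 2 of 16 wild type pairs and in all 16 knockout pairs.

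Clec10a and Mgl2 encode the mouse pair of galactose-type C-type lectins, MGL1 and MGL2, which bind terminal galactose and N-acetylgalactosamine. Clec10a read 147.4, 134.3, 153.1 and 153.2 in untreated wild type mice and 400.5, 280.5, 171.1 and 588.0 after challenge. In the knockout it read 150.0, 138.8, 139.8 and 136.3 untreated and 383.4, 270.1, 249.3 and 381.0 after challenge. The 4 challenged wild type mice spread more widely than the knockout mice, with replicate 3 only just above the untreated mice and replicate 4 the highest of all. The rise was 1.15 ± 0.27 in the wild type, 2.22-fold (limma adjusted p = 0.00591), and 1.16 ± 0.27 in the knockout, 2.23-fold (limma adjusted p = 0.00713). The exact permutation p was 0.0286 in each, and both rises passed in all 16 fits that left out 1 array. When only the 8 wild type arrays were fitted, the wild type rise had an adjusted p of 0.0537.

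Mgl2 was too dim to be tested. Its probe read 35.1 to 73.8 in the 8 untreated mice and 57.9, 50.4, 54.2 and 35.6 in the challenged wild type mice, none above the gauge. In the challenged knockout mice it read 90.9, 122.5, 42.8 and 104.9, so 3 of the 4 lay above the gauge and replicate 3 lay among the untreated mice. The knockout groups overlapped and the exact permutation p was 0.114.

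Mrc1, the mannose receptor CD206, takes up glycoproteins with exposed mannose and is among the most used markers of alternative activation. Its probe was bright in all mice, at 264.2, 263.0, 256.1 and 224.2 in untreated wild type and 285.5, 222.9, 242.3 and 279.2 in untreated knockout mice. Challenged wild type mice read 414.0, 230.4, 276.7 and 147.9, and challenged knockout mice 426.1, 442.3, 120.0 and 404.1. Replicate 1 of the challenged wild type and 3 of the 4 challenged knockout mice lay above all untreated mice, whereas the 2 libraries named at the outset were the lowest of all 16. The change was -0.01 ± 0.35 in the wild type (limma adjusted p = 0.987) and 0.27 ± 0.35 in the knockout (limma adjusted p = 0.655), with 95% intervals of -0.76 to 0.74 and -0.48 to 1.02. Without these 2 libraries the knockout change was 0.73 (limma adjusted p = 0.0024) and the wild type change 0.24 (limma adjusted p = 0.246).

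Arg1 encodes arginase 1, which splits arginine into urea and ornithine, a source of polyamines and proline. It read 73.5 to 76.3 in untreated wild type and 59.5 to 74.9 in untreated knockout mice, at the gauge or below it. After challenge it read 269.8, 99.2, 70.8 and 99.7 in the wild type and 529.5, 166.8, 75.3 and 370.1 in the knockout. Knockout replicates 1 and 4 and wild type replicate 1 were the 3 highest mice, and replicate 3 of each challenged genotype was near the untreated level. The wild type change, 0.65 ± 0.47, did not pass (limma adjusted p = 0.293). The knockout rise of 1.73 ± 0.47 passed (limma adjusted p = 0.0194), with the groups apart by a margin of 75.3 against 74.9 (exact permutation p = 0.0286), and counted from the gauge it was at least 2.93-fold. That call was lost without untreated knockout replicate 4 (adjusted p = 0.0542), challenged knockout replicate 1 (0.0658) or challenged knockout replicate 4 (0.0696), and without the 2 libraries named at the outset the rise was 2.26 (limma adjusted p = 0.00024).

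Trem2 encodes a receptor for lipids and lipoproteins that signals through the adaptor Tyrobp. It read 81.8, 73.1, 91.0 and 73.3 in untreated wild type mice, and 95.9, 77.3, 97.6 and 80.5 in untreated knockout mice. These readings lay near the gauge, with 2 of 4 wild type and 4 of 4 knockout mice above it. Challenged wild type mice read 201.1, 82.7, 85.0 and 92.9, and challenged knockout mice 268.7, 156.4, 86.0 and 255.6. The mice that were high for Arg1 were high for Trem2 too, in the same order: knockout replicate 1, knockout replicate 4, wild type replicate 1 and knockout replicate 2. The wild type change of 0.43 ± 0.32 did not pass (limma adjusted p = 0.305), and the knockout rise of 1.00 ± 0.32, 2.00-fold, passed (limma adjusted p = 0.043). The knockout groups overlapped, since replicate 3 lay within the untreated range, and the exact permutation p was 0.0857. The call was kept only without challenged knockout replicate 3 or any 1 of the 4 challenged wild type arrays, and was lost in the other 11 of 16 fits, with adjusted p of up to 0.139 (without challenged knockout replicate 4). Without the 2 libraries named at the outset the rise was 1.34 (limma adjusted p = 0.000876).

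**Figure D2:**
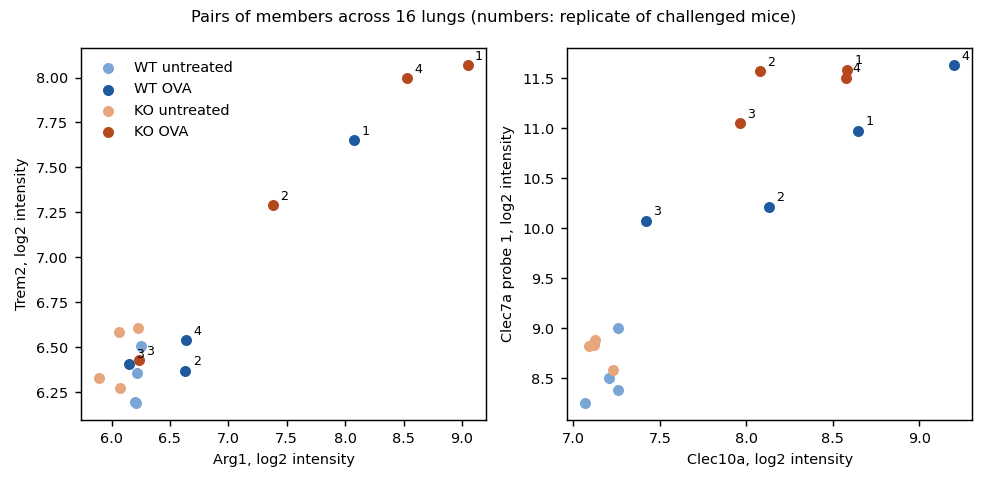
log2 intensity of Trem2 against Arg1 (left) and of Clec7a probe 1 against Clec10a (right) in the 16 lungs, with 1 point per mouse coloured by group and challenged mice marked by replicate number. Knockout replicates 1, 2 and 4 and wild type replicate 1 stand away from the other 12 mice for Arg1 and Trem2, whereas all 8 challenged mice stand away from the 8 untreated mice for Clec7a and Clec10a.

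Msr1, the class A macrophage scavenger receptor for modified lipoproteins, was too dim to be tested. It read 59.6 to 74.5 in untreated wild type, 54.3 to 57.3 in untreated knockout, 64.3 to 78.8 in challenged wild type and 40.8 to 59.2 in challenged knockout mice. Only 1 of the 16 readings was above the gauge. The knockout mice lay below the wild type mice without overlap in both treatments (exact permutation p = 0.0286 in each), where 2.09% of tested probes did so in untreated and 18.6% in challenged mice. Both groups were at background, so no fold is given.

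F13a1 encodes the A subunit of clotting factor XIII, a transglutaminase that cross-links fibrin. It read 163.0, 122.2, 139.7 and 107.6 in untreated wild type mice, and 156.3, 128.5, 132.4 and 130.9 in untreated knockout mice. Challenged wild type mice read 271.6, 114.8, 122.6 and 77.0, and challenged knockout mice 345.1, 220.9, 172.5 and 233.4. In the wild type only replicate 1 was above the untreated mice and replicate 4 was the lowest of all, whereas all 4 challenged knockout mice exceeded all 4 untreated ones. The wild type change was -0.01 ± 0.29 (limma adjusted p = 0.988). The knockout change of 0.79 ± 0.29 did not pass (limma adjusted p = 0.0801, exact permutation p = 0.0286), and passed without challenged wild type replicate 1 (limma adjusted p = 0.0152) or 4 (0.0194), which enter only through the shared estimate of the spread. With the 8 knockout arrays fitted alone, the limma adjusted p was 0.00733.

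Il1rn encodes the interleukin 1 receptor antagonist, which occupies the receptor without signalling. Probe 1, the brightest of 3, read 79.7, 88.7, 89.4 and 88.7 in untreated wild type mice, and 90.2, 83.2, 80.6 and 89.8 in untreated knockout mice. Challenged wild type mice read 94.5, 87.0, 84.5 and 85.0, and challenged knockout mice 156.8, 120.8, 114.5 and 143.8. All 12 mice of the first 3 groups lay within a narrow range just above the gauge, and the 4 challenged knockout mice lay above every one of them, replicate 3 included. The change was 0.02 ± 0.11 in the wild type (limma adjusted p = 0.903) and the knockout rise was 0.63 ± 0.11, 1.55-fold (limma adjusted p = 0.000794, exact permutation p = 0.0286). Probes 2 and 3 were not tested and read 60.3 to 88.6 and 48.3 to 70.8 over the 16 mice. On neither did the challenged knockout mice separate from the untreated ones.

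**Figure D3:**
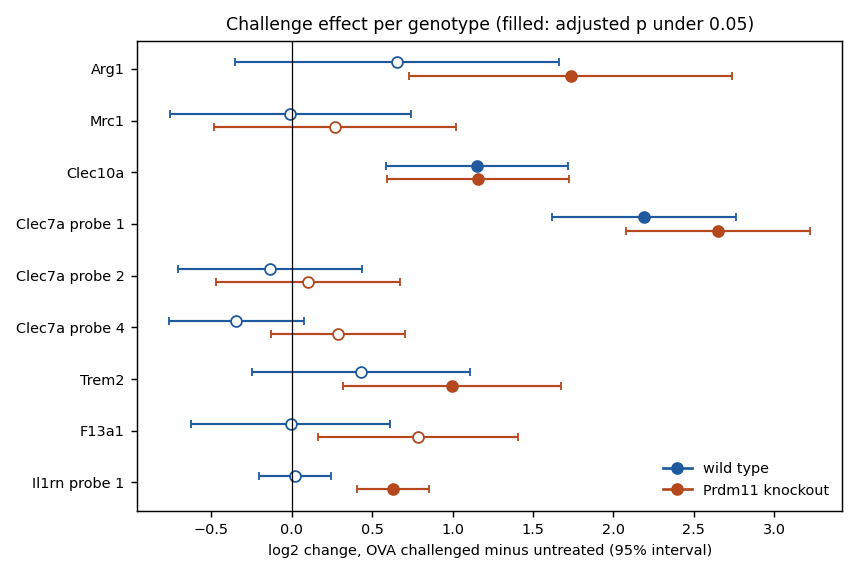
Change with challenge (log2, x axis) of each tested member probe in wild type (blue) and knockout (orange) mice, with 95% intervals from the limma fit of 16 arrays. Filled points have an adjusted p under 0.05. The intervals of Clec7a probe 1 and Clec10a lie above 0 in both genotypes, and those of Arg1, Trem2, F13a1 and Il1rn probe 1 lie above 0 in the knockout only.

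Without challenge, no difference between the genotypes was called for any member. The limma test called 0 of the 9 tested probes, and 0 had an unadjusted p under 0.05, where 0.0168% of all tested probes were called, 0.00561% higher and 0.0112% lower in the knockout. The differences, knockout minus wild type, ranged from -0.15 for Arg1 to 0.24 for Clec7a probe 1. Their 95% intervals, -1.16 to 0.85 for Arg1 and -0.33 to 0.82 for Clec7a probe 1, do not exclude a difference of either sign. They use a spread pooled over all arrays, challenged mice included, so they do not give the precision of the untreated mice alone. For Arg1 the SD was 0.02 and 0.14 in untreated wild type and knockout mice, and 0.83 and 1.25 in the challenged groups. With the untreated arrays fitted alone, 1257 of all tested probes had an unadjusted limma p under 0.05, against 327 with all arrays. No member probe was called in that fit either. All 9 probes overlapped between the untreated genotypes, whereas 2.17% of all tested probes lay wholly higher in the knockout.

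Among challenged mice, 4 of the 9 tested probes, for 3 genes, were higher in the knockout and none was lower. Of all tested probes 44.2% were called, 21.1% higher and 23.1% lower in the knockout, so that calls were common in this comparison. Il1rn probe 1 differed by 0.60 ± 0.11, 1.52-fold (limma adjusted p = 0.000826), was higher in all 16 pairs of mice, and passed in each of the 16 fits that left out 1 array. It was the only tested member probe without overlap, as 15.8% of all tested probes were in this direction. F13a1 differed by 0.85 ± 0.29, 1.80-fold (limma adjusted p = 0.0289), with 13 of 16 pairs higher and an exact permutation p of 0.114. Its call was lost without challenged wild type replicate 2 (limma adjusted p = 0.0566) or 4 (0.0741), or challenged knockout replicate 1 (0.0947) or 4 (0.0535), and with the 8 challenged arrays fitted alone (0.125).

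Clec7a probe 1 was 0.70 ± 0.27 higher in challenged knockout than in challenged wild type mice, 1.63-fold (limma adjusted p = 0.0455). The groups overlapped, because wild type replicate 4 was the brightest of the 8, and the exact permutation p was 0.171. The call held only without untreated wild type replicate 3, challenged wild type replicate 1 or 4, or challenged knockout replicate 3. In the other 12 fits that left out 1 array it was lost, with adjusted p of up to 0.13 (without challenged wild type replicate 3). With the 8 challenged arrays fitted alone the adjusted p was 0.145. Without the 2 libraries named at the outset the difference was 1.13 (limma adjusted p = 0.000616). These were the brightest wild type and the dimmest knockout mouse, so leaving them out had to raise the difference, and this fit only describes that dependence. Probe 4 of the same gene was also called (0.76 ± 0.20, limma adjusted p = 0.00741), but both group means, log2 6.23 and 5.47, lay below the gauge and no fold is given. Probe 3, untested, was higher in all 16 pairs (exact permutation p = 0.0286), with 3 of 4 knockout and 0 of 4 wild type mice above the gauge. Probe 2 was tested and showed a difference of 0.28 ± 0.27 (limma adjusted p = 0.395).

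Arg1 (0.93 ± 0.47, limma adjusted p = 0.119), Trem2 (0.70 ± 0.32, limma adjusted p = 0.0827) and Mrc1 (0.31 ± 0.35, limma adjusted p = 0.488) were not called between the challenged genotypes. Whether they passed depended on challenged knockout replicate 3, the lowest of its group for each. Without it the differences were 1.45 for Arg1 (limma adjusted p = 0.0108), 1.04 for Trem2 (0.00882) and 0.76 for Mrc1 (0.0219). Without challenged wild type replicate 1, the brightest wild type mouse, Arg1 differed by 1.33 (limma adjusted p = 0.0313) and Trem2 by 1.01 (0.0154). Clec10a showed the smallest difference, -0.05 ± 0.27, with a 95% interval of -0.62 to 0.52.

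The change with challenge was itself compared between the genotypes, on the same 16 arrays as the comparisons above. It was called for 1 of the 9 tested probes, Il1rn probe 1, where 9.33% of all tested probes were called, 5.67% with the larger change in the knockout and 3.67% with the smaller. The Il1rn difference was 0.61 ± 0.15 (limma adjusted p = 0.0263). The call was lost without untreated wild type replicate 3 (0.0557), untreated knockout replicate 2 (0.0553) or 3 (0.056), or challenged knockout replicate 1 (0.0513) or 4 (0.0524). Arg1 and Trem2, which passed in the knockout alone, were not shown to respond differently, with differences of 1.08 ± 0.67 (limma adjusted p = 0.268) and 0.57 (limma adjusted p = 0.383). F13a1 differed by 0.79 (limma adjusted p = 0.194), and by 1.14 without challenged wild type replicate 1 (limma adjusted p = 0.0416). For Clec10a the difference was 0.01, with a 95% interval of -0.80 to 0.81, and for Clec7a probe 1 it was 0.46, with an interval of -0.35 to 1.27. The median over the 9 tested probes was 0.57, and over all tested probes 0.01. Without the 2 libraries named at the outset, 4 of the 9 passed, where 16.9% of all probes did. They were Arg1 (1.52, limma adjusted p = 0.0497), Clec7a probe 1 (0.89, 0.033), Il1rn probe 1 (0.67, 0.00854) and Clec7a probe 4. Leaving out knockout replicate 3 had to raise all 4 differences, and leaving out wild type replicate 4 had to raise that of Clec7a probe 1 as well. All 4 group means of Clec7a probe 4 over all 16 arrays lay below the gauge, so no size is given for it.

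Mouse by mouse, the challenged knockout mice did not read alike on these probes. Knockout replicates 1, 2 and 4 each had 8 of the 9 tested probes above all untreated knockout mice, and replicate 3 had 5. In the wild type, replicate 1 had 7 of 9 above all untreated wild type mice, and replicates 2, 3 and 4 had 3, 3 and 4. The share of all tested probes above the untreated mice was not computed for single arrays. These counts therefore only describe the 9 probes, which include Clec7a probes 2 and 4 near background. The median deviation of the 9 probes from the untreated mean of the genotype was 1.34, 0.79, 0.17 and 0.77 in knockout replicates 1 to 4. In wild type replicates 1 to 4 it was 1.05, 0.01, -0.03 and -0.03. Clec7a probe 1 and Clec10a were up in each of the 8 mice, while Arg1 and Trem2 were high in wild type replicate 1 and in knockout replicates 1, 2 and 4. F13a1 was above the untreated mice of its genotype in wild type replicate 1 and in all 4 knockout mice, least in replicate 3 (0.34). Wild type replicate 4 combined the largest deviations for Clec7a (3.10) and Clec10a (2.00) with a low F13a1 (-0.77) and Mrc1 (-0.76).

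**Figure D4:**
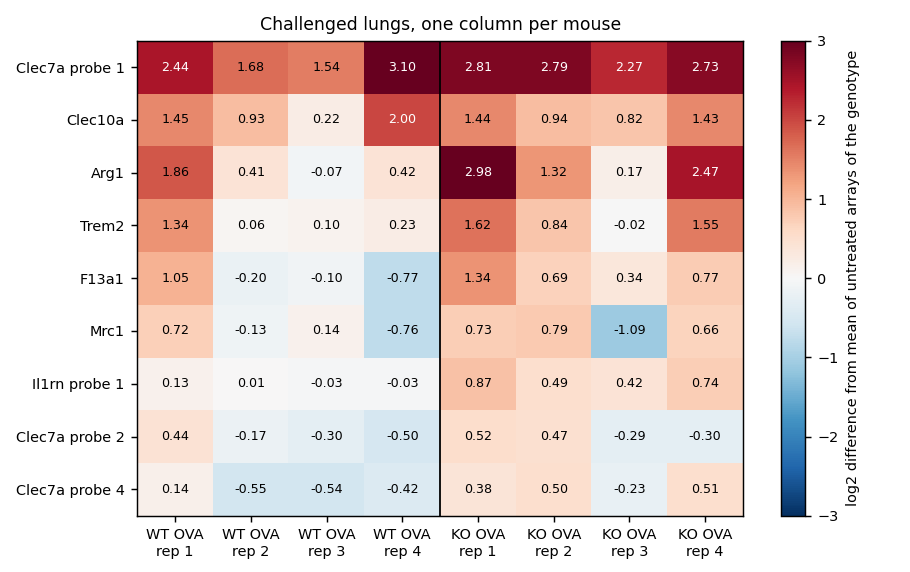
Deviation of each tested member probe (rows) from the untreated mean of the same genotype, in log2, for each challenged mouse (columns, wild type left of the line and knockout right of it). Red is higher and blue lower, with the value in each cell. Clec7a probe 1 and Clec10a are above 0 in all 8 mice, and Arg1, Trem2 and F13a1 reach 0.69 or more in 4 of the 8.

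The genes most like each member over the 16 arrays are given as a description, since groups and libraries shared by all points raise such correlations. For Arg1 they were Trem2 (Pearson r = 0.967), the chemokine gene Ccl8 (0.957) and Wfdc17 (0.906). Trem2 had the same neighbours, with 0.922 for Ccl8 and 0.896 for Wfdc17. Clec10a was closest to Msln (0.967), which encodes mesothelin, and to Mmp12 (0.961), the macrophage elastase. Clec7a probe 1 was closest to Bhlhe40 and Psmd13 (0.981 each), Mrc1 to the alarmin gene Il33 (0.853) and F13a1 to Lhfpl2 (0.945). Il1rn probe 1 was closest to Rgs4 (0.953), the chemokine gene Ccl12 (0.935) and Vgll2 (0.931).

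Related pathways were read through lists, with 1 probe per gene, at the same thresholds. Over all tested probes, 11.7% rose and 17.7% fell with challenge in the wild type, and 9.1% rose and 7.48% fell in the knockout. The list counts here and below are to be read against these shares, and a count near them says nothing particular about a list. Of 25 tested genes that IL-4 and IL-13 induce or signal through in macrophages, 12 rose and 2 fell with challenge in the wild type, and 11 rose and 2 fell in the knockout. Retnla, a resistin-like secreted protein, rose by 4.27 and 4.73, and Mmp12 by 4.07 and 3.19. The list medians were 0.40 and 0.51. Around Arg1, the list of arginine and polyamine genes had 16 tested genes. In the wild type 1 rose and 3 fell, Ddah2 (-0.90), Aldh18a1 (-0.76) and Oat (-0.51). In the knockout limma called 0, with 3 at an unadjusted p under 0.05, led by Nos3 (-0.47, limma adjusted p = 0.0693).

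Around the lectins, 3 of 23 tested genes for C-type lectins and their Card9 pathway rose and 1 fell in each genotype. Malt1, a protease of that pathway, rose by 0.91 and 0.95, and the endothelial lectin gene Clec1a fell by 1.31 and 0.68 on the log2 scale. Of 18 tested genes of the Trem family and lipid-laden macrophages, 4 rose and 2 fell in the wild type and 6 rose in the knockout. Plcg2, an enzyme downstream of Trem2, rose by 0.84 and 1.14, and Gpnmb by 1.03 and 0.73. Of 15 tested scavenger receptor genes other than Msr1, 1 rose and 6 fell in the wild type and 2 fell in the knockout, among them Scarf1 (-1.28 and -1.22).

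Around Il1rn, 2 of 17 tested interleukin 1 family genes rose and 4 fell in the wild type, and 1 rose and 1 fell in the knockout. These counts were near the shares over all tested probes. Irak3, an inhibitor of interleukin 1 receptor signalling, fell by 1.38 in the wild type, and the decoy receptor gene Il1r2 rose by 0.89 in the knockout. Around F13a1, 2 of 13 tested coagulation and fibronectin receptor genes rose and 2 fell in the wild type, and 5 rose and 2 fell in the knockout. Thbd, the endothelial anticoagulant thrombomodulin, fell by 0.99 and 1.60, and F10, a clotting factor gene, rose by 0.72 and 0.87. Genes of classical activation served for contrast: 3 of 13 tested rose in the wild type and 2 in the knockout, with Irf5 at 1.08 and 0.63, and none fell.

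Markers of the cells that could carry the members moved as follows, in wild type and then knockout mice. Over all tested probes 11.7% rose and 17.7% fell, then 9.1% rose and 7.48% fell. Of 10 tested general macrophage markers, 3 rose and 1 fell, then 2 rose and 1 fell; Aif1 rose by 1.46 and 0.83 and Mertk fell by 0.75 and 1.06. Their mean over 11 genes ran from log2 9.13 to 9.28 in untreated mice, 9.31 to 9.64 in challenged wild type and 8.76 to 9.54 in challenged knockout mice, with 9 to 11 genes above the gauge in each array. Of 9 alveolar macrophage markers 2 rose and 3 fell, then 2 rose, and of 12 interstitial macrophage markers 3 rose and 1 fell, then 4 rose and 1 fell. For dendritic cells the counts were 6 and 7 of 11 higher, for neutrophils 2 and 1 of 9, and for eosinophils 2 and 1 of 4, with none lower. Of 5 monocyte markers 1 rose and 1 fell, then 1 rose and 2 fell, and of 7 fibroblast markers 1 rose and 1 fell, then 1 fell. Of 8 lung epithelium markers limma called none in the wild type, with 2 at an unadjusted p under 0.05, and 1 rose and 4 fell in the knockout. The part of these cell types in the members' changes was not tested.

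Markers of striated muscle moved with challenge as well. Of 20 tested, 13 rose in the wild type and 15 in the knockout, and none fell. Their mean was log2 8.80 to 9.36 in untreated mice. It was 10.57, 11.23, 9.24 and 10.23 in challenged wild type and 11.48, 10.40, 11.39 and 11.33 in challenged knockout replicates 1 to 4. Within each genotype every challenged mouse lay above every untreated one, so this mean cannot be well separated from challenge. With this mean as a covariate, 3% of all tested probes were called for challenge in the wild type and 0% in the knockout. Calls lost there are thus not particular to the members. Between the challenged genotypes 33.1% were called. The Clec7a probe 1 change was 2.20 in the wild type (limma adjusted p = 0.0143) and 2.67 in the knockout (limma adjusted p = 0.0837), and that of Arg1 in the knockout was 0.86 (limma adjusted p = 0.762). Clec10a was then at 0.70 (limma adjusted p = 0.324) and 0.50 (limma adjusted p = 0.744), Trem2 in the knockout at 0.74 (limma adjusted p = 0.699) and Il1rn probe 1 in the knockout at 0.46 (limma adjusted p = 0.364). Of the 4 calls between the challenged genotypes, those of F13a1 (0.78, limma adjusted p = 0.108) and Clec7a probe 1 (0.71, limma adjusted p = 0.114) were lost with the covariate. Those of Il1rn probe 1 (0.53, limma adjusted p = 0.00753) and Clec7a probe 4 (0.81, limma adjusted p = 0.0217) were kept, the latter between means below the gauge.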

How the data were processed

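Lung RNA of 16 mice was read on 16 Illumina bead arrays. The authors deposited 1 linear intensity for each probe and array, made with GenomeStudio 2011.1 per the submitters' processing notes. Their normalization and background treatment are not given in the sources used here. Sorted values of the arrays differed by at most 4.9 at the same rank, with medians of 85.4 to 86.5, so the values were used as deposited. They were raised to a floor of 16 (1123 of 411152 values) and put on the log2 scale. A probe entered the test if at least 4 arrays had it above their own 40th percentile.

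Probe names came from the platform annotation, which gave 1 symbol for 23978 probes and did not list 1719. All 16 arrays were fitted with 1 mean per group in limma 3.58.1 (R 4.3.3), without a replicate block, and p-values were Benjamini-Hochberg adjusted over the tested probes of a comparison. The model was tested on simulated data. Exact permutation tests were two-sided over the 8 arrays of a comparison. Promoter motifs were searched in Python 3.11.15. No slide or scan batch is named in the labels. The number of arrays limits the precision. The labels give each array its own mouse, and no shared litter or culture is named.

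Every probe of the members is reported. For 8 pathway lists and 10 cell type lists, genes were named from the 3 called genes with the largest changes or, where none was called, the smallest p. A gene named in 1 genotype is also given in the other. For likeness, the 3 probes with the highest Pearson r were taken, of which some are printed. The members and lists were chosen with earlier results of these data known. The alternatives were another floor, normalization, filter, prior, array weighting or set of arrays, 1 probe per gene, a replicate block, a muscle covariate and leaving out each array. Leaving out challenged wild type replicate 4 and challenged knockout replicate 3 together, and the background gauge, were chosen after seeing the data.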

Additional observations from a re-analysis of the deposited data

Results flagged for a closer look

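Within groups of 4 mice, 56 sets of readings (14 probes in 4 groups) were checked for 1 value far from the other 3, and 7 stood out, where chance gives about 1 in 20. Challenged knockout replicate 3 was low for Mrc1, at log2 6.91 with the nearest mouse at 8.66, and for Clec7a probe 1, at 11.05 with the nearest at 11.51. Challenged wild type replicate 1 was high for Trem2, at 7.65 against 6.54. Untreated knockout replicate 1 was high for F13a1, at 7.29 against 7.05, and for Clec7a probe 4, at 6.33 against 5.84. Untreated wild type replicate 1 was low for Il1rn probe 1, at 6.32 against 6.47, and challenged knockout replicate 2 was low for the untested Il1rn probe 3, at 5.59 against 6.08.

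The change of Il1rn probe 1 with challenge was larger in the knockout than in the wild type by 0.61, by limma's test of the difference itself. It was the only tested member probe for which this difference passed.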

How the results depend on the processing

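Of 1276 values of a member probe in a comparison under an alternative, 1204 kept their side of the threshold, 47 lost and 25 gained a call. Of the values called in either fit, 0 changed direction. Some uncalled values near 0 did change direction, and they are among the 1204. The Clec10a difference in response, for example, ran from -0.30 to 0.40. Leaving out each array in turn, the number of member probes called was 2 in each fit for challenge in the wild type, 3 to 6 for challenge in the knockout (5 with all arrays), 0 for the untreated genotypes, 2 to 7 for the challenged genotypes (4 with all arrays) and 0 to 2 for the difference in response (1 with all arrays). Over all tested probes, the shares called in these fits were 18.3 to 38.8%, 11.8 to 30.5%, 0.00561 to 0.0225%, 35.9 to 48.9% and 2.3 to 20.3%, in the same order. The share of all tested probes called in the same fit stands in brackets after each of the next counts. Without challenged wild type replicate 4 and challenged knockout replicate 3 together, 7 were called between the challenged genotypes (41%) and 4 for the difference in response (16.9%). With array weights the count was 8 for challenge in the knockout (39.6%) and 3 for the difference in response (20.6%). Without the filter it was 7 between the challenged genotypes (38.4%) and 2 for the difference in response (6.19%), more probes being tested. Fitting only the 8 arrays compared gave 1 for challenge in the wild type (11.7%) and 2 between the challenged genotypes (18.7%). Such fits give no value for the difference in response. The muscle covariate gave 1 for challenge in the wild type (3%), 0 in the knockout (0%) and 2 between the challenged genotypes (33.1%), and the cause was not tested. Deviations of same-numbered mice correlated at -0.11 to 0.32, with a median of 0.01, and over 0.1 in 6 of 24 pairs. Those of other pairs ran from -0.36 to 0.29, with a median of -0.0007, and were over 0.1 in 10 of 72. The labels name no pairing, and this check cannot exclude one. With the replicate number as a block, 2 (30.4%), 6 (16.2%), 0 (0.00561%), 3 (44.1%) and 1 (10.4%) member probes were called in the 5 comparisons. F13a1 was gained for challenge in the knockout (limma adjusted p = 0.0222) and Clec7a probe 1 was lost between the challenged genotypes (0.0543). The other alternatives moved no count by over 1.5 times. Counts over all probes moved further. For challenge in the knockout, 2954 with all arrays became 2095 to 5424 leaving out 1 array, 7048 with array weights, 5818 from its 8 arrays, 4980 without both libraries and 0 with the muscle covariate (2147 at an unadjusted p under 0.05). For challenge in the wild type, 5244 became 3256 to 6903 leaving out 1 array, 2084 from its 8 arrays and 534 with the muscle covariate. The difference in response went from 1662 to between 410 and 3611 leaving out 1 array, 3665 with array weights and 3010 without both libraries. Between the challenged genotypes, 7879 became 6389 to 8715 leaving out 1 array, 7302 without both libraries and 3336 from their 8 arrays. Between the untreated ones 3 became 24 with array weights, 13 from their 8 arrays, 7 without both libraries and 1 with the block or the muscle covariate.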
